A study of Mus musculus with 2 samples.

Results

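The genes described here encode the proteasome, the barrel-shaped protease that degrades proteins tagged with ubiquitin. They were chosen by a rule on names, as genes whose single symbol in the platform annotation starts with Psm, a letter from a to g and a digit. The rule was set with earlier results of these data known. The choice gave 49 genes of 18193 named on the array, covered by 103 probe sets. Their transcripts were compared in cultured Th2 cells, the helper T cells of allergic responses, on 2 Affymetrix arrays, 1 for an Ecm1 knockout and 1 for wild type. CD4 cells came from the spleens of female C57BL/6 mice aged 6 weeks, by magnetic isolation with an antibody to CD4. Both genotypes were cultured for 4 days under the same conditions, with plate-bound anti-CD3 at 3 µg/ml and anti-CD28 at 2 µg/ml. IL-4 was added at 10 ng/ml (a unit read from a garbled label), and antibodies against IFN-γ and IL-12 at 10 µg/ml each. The knockout lacks Ecm1, a secreted glycoprotein of the extracellular matrix, and the labels give neither the deleted part of the gene nor the number of mice behind an array. The starting cells are called naive in the design text, while the sample descriptions name liver. Ecm1 itself had a signal of 19.3 on the knockout array, below the floor of detection used here, and 29114.7 on the wild-type array, at least 414-fold lower in the knockout. Signals below are given with the knockout array first and the wild-type array second.

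In the core particle, rings of alpha subunits (Psma genes) gate a chamber formed by rings of beta subunits (Psmb genes), of which Psmb5, Psmb6 and Psmb7 carry the catalytic sites. The regulatory particle caps the core: its base unfolds substrates with a ring of ATPases (Psmc genes) and its lid, built from Psmd genes, removes ubiquitin. Lymphocytes also make the immunoproteasome, in which Psmb8, Psmb9 and Psmb10 take the places of Psmb5, Psmb6 and Psmb7. Interferon-γ induces these subunits together with the PA28 activator (Psme1 and Psme2), and the peptides they cut are loaded on MHC class I molecules.

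The standard proteasome was higher on the knockout array as a block, and the immunoproteasome was not. All 31 measured genes of the standard core and regulatory particle lay above 0, against 53.1% of all measured genes. The scale is the log2 difference (knockout minus wild type, centred on the median probe set), and their median was 0.64, or 1.56-fold. Psmb8, Psmb9, Psmb10 and Psme1 lay below 0, with a median of -0.20. The lowest standard subunit, Psma2 at 0.23, stood above the highest of these, Psmb8 at -0.03, so the groups did not overlap. They did not overlap in 9 of 10 alternative ways of processing either. Among these, no centring, centring on named probe sets and the changes of floor could not alter the gap. A constant shift cancels in it, and no gene of these groups was lost to a floor. The gap of 0.26 was narrow. It was 0.10 with the median over measured probe sets and 0.16 without probe sets that can match several transcripts, and all of these are within 0.51, the SD that disagreement between probe sets of 1 gene gives for a difference between 2 genes. With dim probe sets averaged in, Psmc1 was at -0.93, because its second probe set, below the floor on both arrays, read 4.4 and 29.1. Each difference describes these 2 arrays only, since 1 array per group allows no test and no error between replicates. Fewer cells of a type and less RNA per cell cannot be told apart in bulk RNA. On the same arrays the measured T cell markers had a median of -1.03 and the plasma cell markers one of 1.91, and their part in the proteasome differences was not tested.

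**Figure D1:**
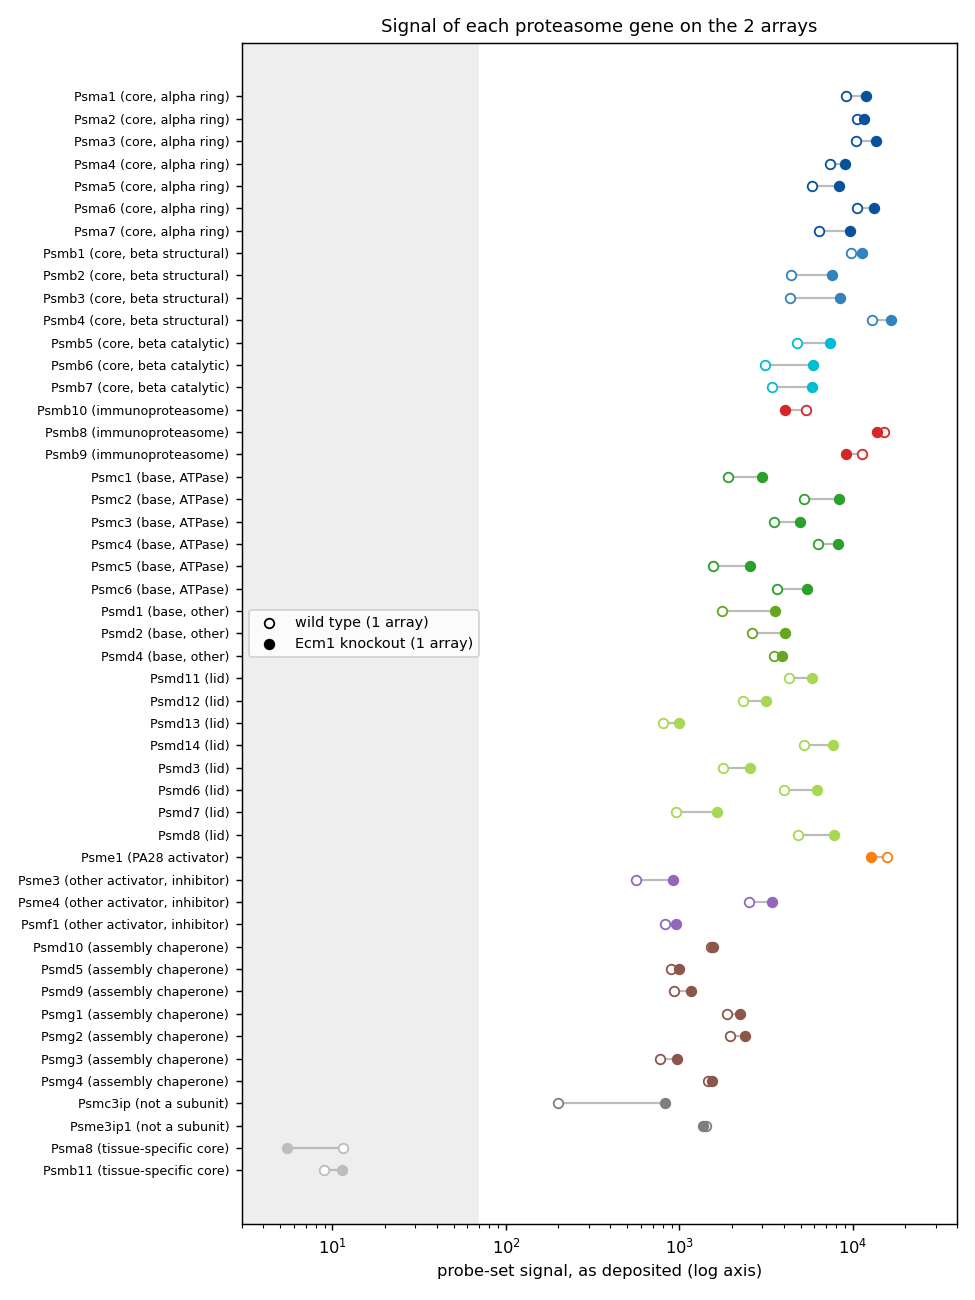
Signal of each of the 49 proteasome genes, as deposited, on a log axis, with the wild-type array as open circles and the knockout array as filled circles, 1 array each, coloured by role. The shaded area lies below the wild-type floor of 69.2. Filled circles lie to the right of open ones in all 31 genes of the standard core and regulatory particle, and to the left in Psmb8, Psmb9, Psmb10 and Psme1.

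A gene was called measured when its brightest probe set reached the median signal of both arrays (65.5 in the knockout, 69.2 in wild type), a floor that 47 of the 49 genes passed. The others were Psma8, a core subunit of the testis, which read 5.5 and 11.5, and Psmb11, the catalytic subunit of the thymus, which read 11.4 and 8.9. Psme2 is not among the 49, because its probe set also carries the symbol of Psme2b and so cannot be given to either gene. That shared probe set read 9511.8 and 10802.2, a log2 difference of -0.08. Of the 47 measured genes, 43 lay above 0, against 53.1% of all 10144 measured genes. The median of the 47 was 0.53, beside 0.04 for all measured genes. At least 1.5-fold higher were 21 of the 47, or 44.7%, against 18.3% of all measured genes, and 0 were at least 1.5-fold lower, against 13.6%. At 2-fold the picture was different, with 4 of 47 higher (8.51%, against 7.15%) and 0 lower (against 4.45%), so the 2-fold share was near the background. The shift was thus broad and small.

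Under other scalings between the arrays the direction held and the counts past 1.5-fold were smaller. Above 0 were 42 of 47 in the signals as deposited (45.7% of all measured genes), 42 after quantile normalization (50%) and 42 after an intensity-dependent loess (49.9%). At least 1.5-fold higher were 15 as deposited (against 14.6%), 11 after quantile normalization (against 16.8%) and 12 after loess (against 16.8%), which brought the share nearer to the background. At least 2-fold higher were 2 (against 5.79%), 1 (against 6.55%) and 1 (against 6.58%), and these shares were below the background. At 1.5-fold lower there were 0 members under each, against 17.6%, 14.9% and 14.8%. At 2-fold lower there were also 0, against 6.02%, 5.07% and 5.04%. Of all genes past 1.5-fold, 57.3% were higher in the knockout after centring and 45.4% in the signals as deposited, the centring itself shifting every gene by 0.10.

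**Figure D2:**
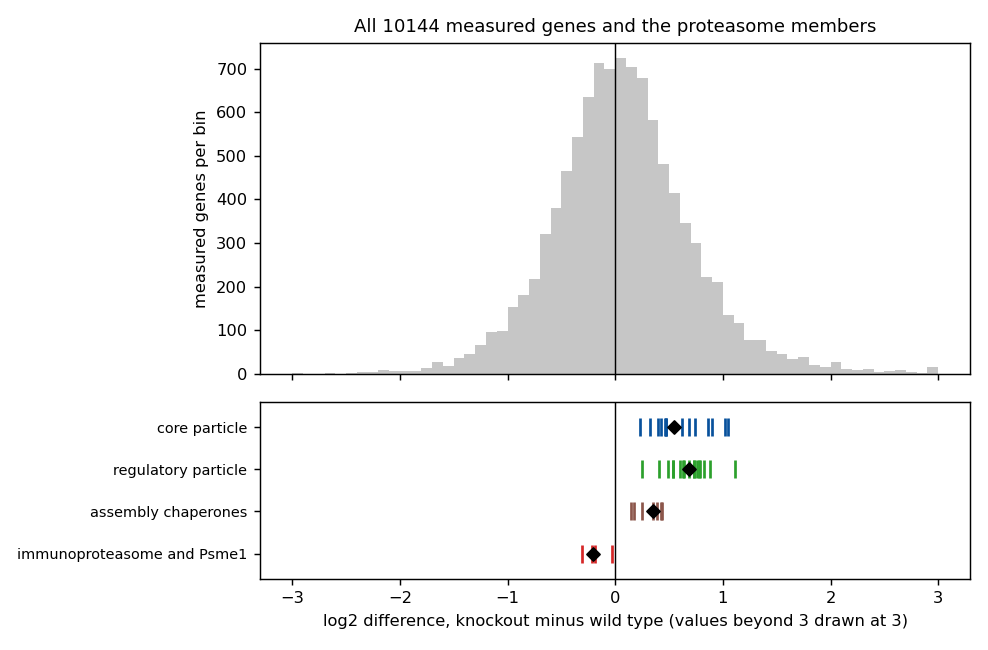
Upper panel, histogram of the log2 difference (knockout minus wild type) of all 10144 measured genes, with values beyond 3 drawn at 3; lower panel, each measured gene of 4 proteasome groups as a tick, with the group median as a diamond. The core particle (median 0.55) and regulatory particle (0.68) sit right of 0, assembly chaperones (0.35) nearer to it, and the immunoproteasome with Psme1 (-0.20) left of it.

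The only internal measure of error was the agreement between probe sets of 1 gene. Over the 24 proteasome genes with at least 2 measured probe sets, the SD of a log2 difference was 0.23, and over 4657 such genes of the array it was 0.36. Both leave out animal, culture and array error. In 18 of the 24 the 2 brightest probe sets had the same sign, and 8 genes had measured probe sets on both sides of 0. The contrary probe sets had signals between 68.8 and 938.6, each weaker than the brightest probe set of its gene. Psma1 read 11838.5 and 9164.6 in its brightest probe set (0.47), while a dim one read 116.6 and 129.0 (-0.04). Psma6 read 13216.8 and 10568.8 (0.43), and its dimmest read 95.2 and 174.5 (-0.77). Psmf1, an inhibitor of the proteasome in the test tube, had no settled sign, since its brightest probe set read 950.1 and 822.9 (0.31) and the others gave -0.25 and -0.61.

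The alpha ring, which gates entry to the chamber, had 7 of 7 genes above 0, against 53.1% of all measured genes. It had the smallest median of the standard parts, 0.47. Psma7 led with 9554.7 and 6384.6 (0.68), and its other probe set gave 0.57. Psma5 read 8333.4 and 5817.6 (0.62), with 0.69 in its other measured probe set. These were the 2 alpha genes past 1.5-fold, or 28.6% of the 7, near the 18.3% of all measured genes. Under no centring, quantile normalization or loess 0 of the 7 were, against 14.6%, 16.8% and 16.8% of all measured genes. Psma2 was lowest with 11509.5 and 10563.4 (0.23). Psma1, Psma3, Psma4 and Psma6 lay between 0.40 and 0.48, and among these 4 the order was finer than the spread between probe sets. Psma3 read 13490.1 and 10413.0 (0.48), and a dim second probe set gave -0.08.

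Among the structural beta subunits, 2 of 4 were past 1.5-fold, against 18.3% of all measured genes. Psmb3 read 8365.0 and 4357.4 (1.04), and a second probe set of similar signal gave 0.97. Psmb2 read 7581.5 and 4374.1 (0.90). Psmb4 read 16495.0 and 12842.2 (0.46, with 0.64 in its other probe set), and Psmb1 11268.9 and 9690.8 (0.32). All 4 lay above 0, against 53.1% of all measured genes, Psmb3 highest and Psmb1 lowest.

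The catalytic subunits differed from their immunoproteasome counterparts. Psmb5, the chymotrypsin-like subunit, read 7382.5 and 4732.0 (0.74). Psmb6, the caspase-like subunit, read 5872.0 and 3119.4 (1.02). Psmb7, the trypsin-like subunit, read 5803.6 and 3432.6 (0.86). All 3 were past 1.5-fold, against 18.3% of all measured genes, with higher signal in the knockout. Psmb5, however, was at 0.55 after quantile normalization and 0.56 after loess, short of that threshold. Psmb8, which replaces Psmb5, read 13794.8 and 15167.9 (-0.03), and a second probe set at 925.6 and 938.6 gave 0.08. Psmb9, which replaces Psmb6, read 9060.6 and 11309.0 (-0.22). Psmb10, which replaces Psmb7, read 4046.0 and 5371.8 (-0.31). None of these 3 was past 1.5-fold, against 18.3% higher and 13.6% lower of all measured genes. In the deposited signals each was lower on the knockout array.

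Within each pair the immunoproteasome gene lay below its standard partner. The log2 difference of Psmb9 minus that of Psmb6 was -1.23 (2.35-fold lower), and Psmb10 minus Psmb7 gave -1.17 (2.24-fold lower). Psmb8 minus Psmb5 gave -0.78 (1.72-fold lower). Centring on the median cancels in such a comparison. The technical SD for a difference between any 2 genes was 0.51, so the gaps came to -2.42, -2.29 and -1.53 such SDs. Over 10 alternatives the gap stayed between -1.26 and -1.22 for Psmb9, between -1.19 and -1.15 for Psmb10 and between -0.78 and -0.72 for Psmb8. Most of these settings could not move the Psmb9 and Psmb10 gaps, since a shift cancels and each gene there has 1 probe set. Only quantile normalization, loess and adding 50 to each signal could. For Psmb8, with a second probe set, the mean or median over probe sets could too.

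**Figure D3:**
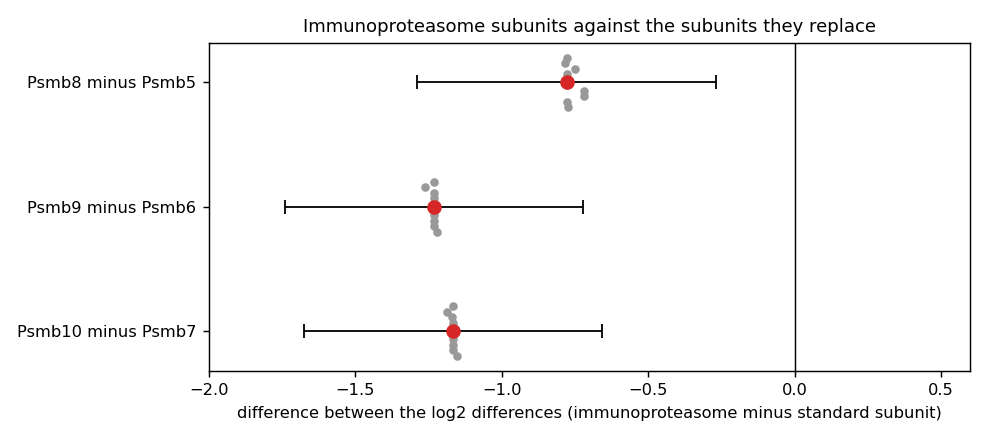
Log2 difference of each immunoproteasome subunit minus that of the standard subunit it replaces (horizontal axis). Red points are the values given in the text. Bars are 1 technical SD of a difference between 2 genes (0.51) on either side and leave out error between animals, cultures and arrays. Grey points are 10 alternative settings, of which shifts and floors cannot move a point. All points lie left of 0, at -0.78, -1.23 and -1.17.

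The promoters of these genes are shown because the 2 classes differed, with the 250 bases before each start site taken from RefSeq (GRCm38.p6). Capitals mark matches, on either strand, to the CCAAT box (CCAAT), the antioxidant response element core (TGACNNNGC), the interferon-γ-activated site (TTCNNNGAA) or the interferon-stimulated element core (2 GAAA blocks with any 2 bases between them). Psmb5 lies at chr14:54617996-54618245 on the minus strand, Psmb6 at chr11:70525107-70525356 on the plus strand and Psmb3 at chr11:97703184-97703433 on the plus strand. Psmb8 lies at chr17:34197945-34198194 on the plus strand, Psmb9 at chr17:34187331-34187580 on the minus strand and Psmb10 at chr8:105938393-105938642 on the minus strand.
Psmb5: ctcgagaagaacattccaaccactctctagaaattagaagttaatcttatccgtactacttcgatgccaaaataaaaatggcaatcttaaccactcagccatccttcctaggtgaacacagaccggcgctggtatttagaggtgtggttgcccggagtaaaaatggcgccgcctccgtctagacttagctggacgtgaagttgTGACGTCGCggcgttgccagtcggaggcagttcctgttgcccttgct
Psmb6: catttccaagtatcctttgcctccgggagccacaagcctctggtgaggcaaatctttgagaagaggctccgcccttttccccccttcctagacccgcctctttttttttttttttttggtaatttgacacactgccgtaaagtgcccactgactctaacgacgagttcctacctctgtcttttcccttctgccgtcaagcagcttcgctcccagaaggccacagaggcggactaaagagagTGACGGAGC
Psmb3: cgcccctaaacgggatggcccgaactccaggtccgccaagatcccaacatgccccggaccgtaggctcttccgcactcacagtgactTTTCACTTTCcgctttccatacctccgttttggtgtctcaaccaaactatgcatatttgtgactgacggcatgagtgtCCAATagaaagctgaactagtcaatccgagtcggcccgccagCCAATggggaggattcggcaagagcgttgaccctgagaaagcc
Psmb8: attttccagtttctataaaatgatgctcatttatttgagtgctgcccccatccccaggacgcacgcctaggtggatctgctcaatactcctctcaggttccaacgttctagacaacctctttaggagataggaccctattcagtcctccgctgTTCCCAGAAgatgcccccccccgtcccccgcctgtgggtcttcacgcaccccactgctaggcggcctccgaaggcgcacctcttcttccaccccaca
Psmb9: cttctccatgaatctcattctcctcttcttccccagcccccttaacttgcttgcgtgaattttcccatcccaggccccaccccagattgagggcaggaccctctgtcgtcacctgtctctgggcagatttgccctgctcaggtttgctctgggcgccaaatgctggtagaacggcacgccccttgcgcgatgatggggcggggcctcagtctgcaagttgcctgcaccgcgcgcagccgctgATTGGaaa
Psmb10: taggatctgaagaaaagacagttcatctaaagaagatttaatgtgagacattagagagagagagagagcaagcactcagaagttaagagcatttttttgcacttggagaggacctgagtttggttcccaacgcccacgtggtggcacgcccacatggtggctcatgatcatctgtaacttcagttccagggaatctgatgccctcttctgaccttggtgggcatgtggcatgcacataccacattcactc
Psmb5 and Psmb6 each held 1 antioxidant response element core, the kind of site bound by NRF1 and NRF2, which drive proteasome genes. Psmb8 held 1 interferon-γ-activated site and Psmb9 a CCAAT box next to its start, in a window whose far end holds the first 25 bases of Tap1, the neighbouring gene read the other way. Psmb3 held a pair of CCAAT boxes and 1 interferon-stimulated element core, and Psmb10 held no match. No printed match overlapped another.

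A window was matched for 41 of the 49 genes, all but Psma8, Psmb1, Psmb2, Psmb7, Psmc3, Psmd3, Psmd7 and Psmg2. The antioxidant response element core was present in 4 of 25 standard subunit genes with a window (Psmb5, Psmb6, Psmc6 and Psmd12) and in 10.2% of all 32851 windows. The CCAAT box was present in 10 of the 25 and in 33.8% of all windows. The interferon-γ-activated site was found in 0 of the 25 and in Psmb8, 1 of the 4 genes Psmb8, Psmb9, Psmb10 and Psme1, against 7.02% of all windows. The interferon-stimulated element core was in 2 of the 25, Psmb3 and Psmd4, and in 0 of the 4, against 2.98%. These are letters found in a window, not sites shown to be bound.

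In the regulatory particle 17 of 17 genes lay above 0, against 53.1% of all measured genes. Its median was 0.68, beside 0.55 for the 14 genes of the core. The medians differed by 0.13, and by 0.04 to 0.18 over 10 alternatives, a difference that was not tested. Past 1.5-fold were 12 of the 17, against 18.3% of all genes. In the signals as deposited 8 were (against 14.6%), 5 after quantile normalization (against 16.8%) and 6 after loess (against 16.8%). Every ATPase of the base was higher, and 5 of 6 were past 1.5-fold, against 18.3% of all genes. Of the 6, 3 were as deposited, 2 after quantile normalization and 3 after loess, beside the same 14.6%, 16.8% and 16.8%. Psmc5 read 2562.4 and 1549.8 (0.83), Psmc2 8347.8 and 5241.5 (0.77, with 0.63 in its other probe set) and Psmc1 3005.5 and 1901.7 (0.76). Psmc6 read 5433.8 and 3638.9 (0.68), and Psmc3 4969.7 and 3518.1 (0.60). These genes form the ring that unfolds substrates and threads them into the core. Psmc4 was lowest with 8192.7 and 6275.5 (0.49), yet its other probe set gave 0.83, so its rank among the ATPases is not settled.

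The other subunits of the base, the scaffolds Psmd1 and Psmd2 and the receptor Psmd4, spread more widely. Psmd1 had the largest difference of any subunit, with 3549.6 and 1761.9 (1.11). Psmd2 read 4059.5 and 2632.8 (0.73). Psmd4, a receptor for ubiquitin chains, read 3903.9 and 3524.7 (0.25), and its other measured probe sets gave 0.24 and 0.07. In the lid 8 of 8 genes lay above 0, against 53.1% of all measured genes, with a median of 0.63. Past 1.5-fold were 5 of the 8, against 18.3% of all genes. In the signals as deposited 3 were (against 14.6%), and 2 after either quantile normalization or loess (against 16.8% in each). Psmd7, the partner of the lid's deubiquitinase, read 1635.8 and 956.0 (0.88), although a dim probe set gave -0.12, and Psmd8 7796.2 and 4848.3 (0.79). Psmd6 read 6242.0 and 4027.6 (0.74), with 0.88 in its other probe set. Psmd14, the deubiquitinase itself, read 7620.2 and 5250.0 (0.64), and Psmd3 2559.9 and 1778.5 (0.63). Psmd13 was lowest with 993.3 and 806.1 (0.40), and Psmd11 (0.54) and Psmd12 (0.53) lay just above it. The brightest Psmd11 probe set is of a type (_s_at) that can match several transcripts, and without that type Psmd11 was at 0.13.

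**Figure D4:**
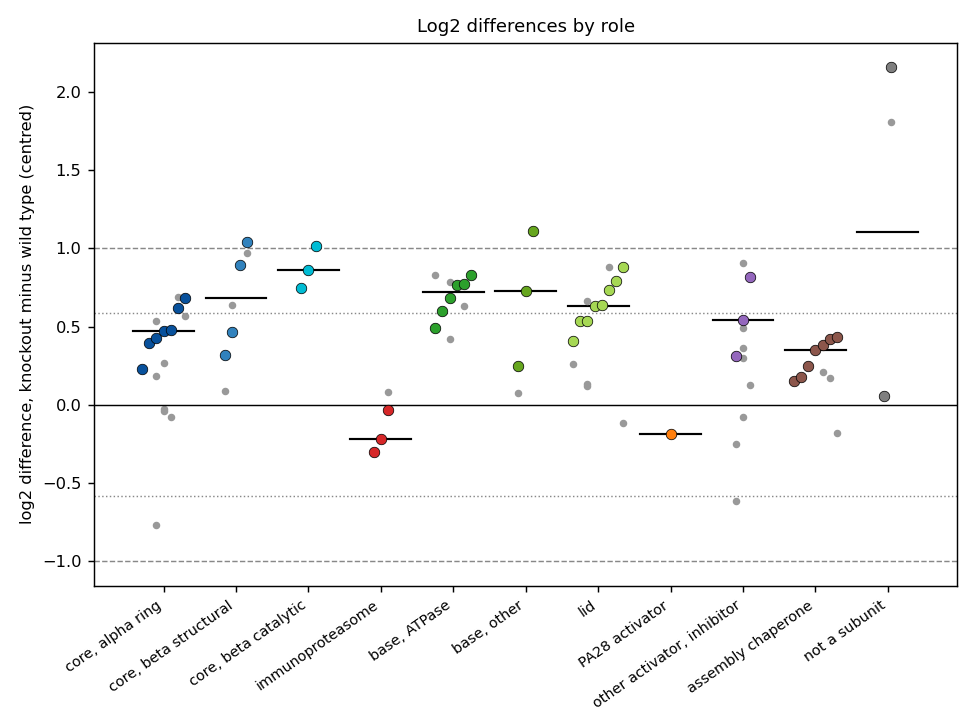
Log2 difference (knockout minus wild type) of the 47 measured genes by role, with the brightest probe set of a gene as a coloured point, its other measured probe sets as grey points at the same position and the median of a role as a black line. Dotted lines mark 1.5-fold and dashed lines 2-fold. By brightest probe set, core, base and lid lie above 0, the immunoproteasome and Psme1 below it, and assembly chaperones between 0.15 and 0.43, while some grey points lie on the other side of 0, the lowest at -0.77 for Psma6.

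The activators went separate ways. Psme1, a subunit of the interferon-inducible PA28 ring, read 12771.2 and 15620.3 (-0.19), close to Psmb9. Psme3, which forms the related nuclear activator, read 921.7 and 562.0 (0.82), although its other measured probe set, at 575.4 and 566.7, gave 0.12. Psme4, which encodes the activator PA200, read 3399.1 and 2505.1 (0.54), and 5 of its 6 measured probe sets lay above 0, the other at -0.08.

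The assembly chaperones, which help build the particle and are absent from the finished one, were all above 0 and none was past 1.5-fold. Their median was 0.35, and of all measured genes 53.1% lay above 0 and 18.3% were at least 1.5-fold higher. Psmd9 was highest with 1160.5 and 924.8 (0.43), although a dim probe set gave -0.18, followed by Psmg3 with 966.8 and 774.9 (0.42). Psmd10 was lowest with 1566.6 and 1517.4 (0.15). Psmg1, Psmg2, Psmg4 and Psmd5 lay between 0.18 and 0.38. Their range of 0.15 to 0.43 overlapped the lower end of the standard subunits.

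A further 2 genes match the symbol rule but are not subunits. Psmc3ip, a partner of the recombinases of meiosis, read 826.6 and 198.9 (2.16), with 1.81 in its other probe set, and is 1 of the 4 genes past 2-fold. The subunits past 2-fold were therefore Psmd1, Psmb3 and Psmb6, and these calls were not stable. In the signals as deposited Psmd1 alone of them remained past 2-fold, and after quantile normalization or loess no subunit did, so that the 1 gene counted there was Psmc3ip. Psme3ip1, which binds Psme3, read 1369.3 and 1415.2 (0.06, a sign that turned under no centring, quantile normalization and loess).

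The partner list held genes that work with the proteasome and regulators of its subunit genes. Of 19 measured, 16 lay above 0, against 53.1% of all measured genes, with a median of 0.28. The 3 below 0, Nfe2l1, Nfe2l2 and Nfya, were all regulators, but Ngly1 (0.46), Nfyb (0.23) and Nfyc (0.19), listed in the same role, lay above 0. Nfya and Nfyb each changed sign under at least 1 alternative. At least 1.5-fold higher were 5 of the 19, or 26.3%, near the 18.3% of all measured genes, and 0 were lower, against 13.6%. Txnl1, a thioredoxin bound to the lid, read 9784.5 and 4550.0 (1.21, though 1 of its 4 measured probe sets gave 0.04). Rad23b, a shuttle for ubiquitinated proteins, was at 0.98 (with -0.14 in another probe set), Uchl5, a deubiquitinase of the base, at 0.77, and Pomp, which matures the core, at 0.74 (9729.4 and 6239.9). Sem1, a small lid subunit outside the symbol rule, was at 0.41. Nfe2l1 and Nfe2l2, which encode NRF1 and NRF2, were not higher, at -0.32 (740.7 and 989.6) and -0.28 (782.1 and 1020.7). Ubiquitin and p97 genes had a median of 0.64 over 9 measured, with 5 at least 1.5-fold higher, against 18.3% of all genes, and 0 lower, against 13.6%. They included Ubxn4 (1.07), the p97 cofactors Nsfl1c (1.04) and Nploc4 (0.89), and Vcp, p97 itself (0.79, with -0.04 in its other probe set).

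Most genes of the interferon pathway that induces the immunoproteasome were lower in the knockout. Of 11 measured inducers, 7 were at least 1.5-fold lower and 0 higher, against 13.6% and 18.3% of all genes, with a median of -0.78. Ifngr1, the ligand-binding chain of the interferon-γ receptor, read 1306.9 and 4464.5 (-1.67). The other chain, Ifngr2, went the other way with 340.3 and 288.4 (0.34), as did the factor Irf8 with 2627.3 and 2241.6 (0.33). Irf9 was at -1.01, Stat2 at -0.98 and Jak1 at -0.89. Irf1, the factor that switches on Psmb9 and Tap1, read 3561.4 and 7064.1 (-0.89). Nlrc5, an activator of class I genes, read 2122.5 and 3625.7 (-0.67). Interferon-induced genes had a median of -0.81 over 22 measured. At least 1.5-fold lower were 13 of them (against 13.6% of all genes), 3 were higher (against 18.3%) and 6 were neither. The 3 higher were Isg20 (1.01), Zbp1 (0.82, with -0.66 in its other probe set) and Bst2 (0.77). Usp18 (-1.63), Xaf1 (-1.27, with 0.94 in its other probe set), Iigp1 (-1.22) and Ifit2 (-1.16) had the largest differences. The median of Psmb8, Psmb9, Psmb10 and Psme1, -0.20, thus lay between that of the interferon-induced genes and that of the standard subunits.

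Class I presentation genes divided. Tap1 and Tap2, which carry the peptides into the endoplasmic reticulum and follow Psmb9 and Psmb8 in the order Psmb9, Tap1, Psmb8, Tap2 in the MHC, were at -0.41 (5466.5 and 7777.1) and -0.32 (2913.7 and 3910.7). The class I chains H2-K1 (-0.02), H2-D1 (-0.05) and B2m (0.04) lay near 0 in their brightest probe sets. B2m and H2-D1 each changed sign under at least 1 alternative. The 4 measured probe sets of H2-K1 reached down to -0.52 and the 7 of H2-D1 to -0.82, all below 0. H2-M3, the other measured chain, was at 0.26. Erap1, which trims peptides, was at 0.42. Pdia3 (1.10), Canx (13595.9 and 7312.3) and Calr (0.98), the folding helpers of the loading complex, were the 3 of 12 past 1.5-fold, against 18.3% of all genes, and all are also on the list of the unfolded protein response of the endoplasmic reticulum (ER). That list holds folding helpers, stress transcription factors such as Atf4, Xbp1 and Ddit3, and the asparagine synthetase Asns. Its median was 1.58, with 23 of 24 at least 1.5-fold higher, against 18.3% of all genes. Creld2 (2.80), Sdf2l1 (2.35), Pdia6 (2.33) and Asns (2.23) were highest. Ddit3 went the other way with 990.3 and 1265.2 (-0.25, with 0.31 in its other probe set). Atf4 was at 0.90, and at -0.05 in its lowest alternative. The CCT chaperonin, another large cytosolic complex, had 8 of 8 genes above 0, against 53.1% of all measured genes. Of the 8, 3 were past 1.5-fold (against 18.3%). The CCT median was 0.39, and Cct3 (0.77, with -0.06 in another probe set), Cct8 (0.73), Cct6a (0.62) and Cct7 (0.39) were highest. Cct2 was lowest at 0.12, and at -0.07 in its lowest alternative. The standard proteasome median of 0.64 lay between these lists, and none of the differences between lists was tested.

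**Figure D5:**
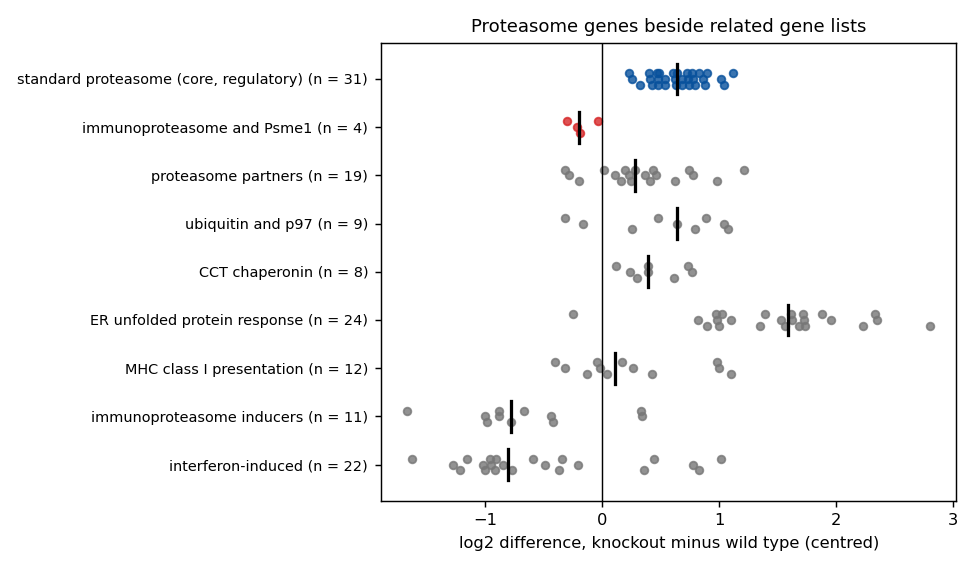
Log2 difference (knockout minus wild type) of each measured gene as a point, for the standard proteasome, the immunoproteasome with Psme1 and 7 related lists, with the median as a black bar and the number of measured genes in brackets. The unfolded protein response of the ER (1.58) lies highest, interferon-induced genes (-0.81) and immunoproteasome inducers (-0.78) lowest, and the standard proteasome at 0.64.

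Markers of the labelled cell type and of others differed between the arrays, beside every gene group above. All 9 measured T cell markers lay below 0 (median -1.03), and their summed signals were 43116.5 and 86853.9. Cd4, the gene the cells were isolated by, read 932.2 and 3022.3 (-1.59). Of 10 plasma cell markers, 9 were measured and all 9 lay above 0 (median 1.91), with sums of 109808 and 47314.2, and 1 of them, Xbp1, is also on the list of the unfolded protein response. B cell markers (8 of 9 measured, median 0.96) summed to 34660.1 and 17158.3, and Pax5 was below the floor on both arrays. Macrophage markers (9 of 12 measured, median 0.97) summed to 19394.5 and 12566.9, with Itgam below the floor on both. NK markers (3 of 5 measured) had a median of -1.77 and sums of 9112.0 and 30551.2, with Ncr1 below the floor. The CD8 markers Cd8a and Cd8b1 were both at -1.19, with sums of 653.4 and 1602.3. Of 7 named dendritic cell markers 3 were measured (median 0.06, sums of 2679.1 and 4457.9). Of 8 neutrophil markers 1 was measured (1.72, sums of 606.0 and 303.5), of 6 mast cell, basophil and eosinophil markers 1 (0.56, sums of 249.6 and 165.3), and of 4 erythroid markers 1 (0.10, sums of 134.3 and 141.5). None of 6 hepatocyte markers reached the floor on either array, although the descriptions name liver. No marker signal was 0.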

How the data were processed

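RNA of 1 Ecm1 knockout and 1 wild-type Th2 culture was measured on Affymetrix arrays from 3 µg of total RNA, per the labels' protocols. The authors deposited linear signal intensities for 45101 probe sets. The summarisation software was not given in the sources used here. After trimming, the central 96% of probe sets averaged 500.004 on both arrays, while the upper quartiles were 423.4 and 456.2, so the arrays are globally scaled and not quantile normalised. Precision is limited by having only 2 arrays.

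Names came from the platform annotation, which gave 34945 probe sets 1 symbol, 932 several and 9160 none, besides 64 controls. Log2 differences were centred on their median (-0.10) over 20834 probe sets at or above the array median on both arrays, and a gene took its brightest probe set. Thresholds were 1.5-fold and 2-fold. Python 3.11.15, numpy 2.4.6, pandas 2.3.3, scipy 1.17.1 and matplotlib 3.10.9 were used, and the procedure was tested on simulated data. Alternatives were no centring, quantile normalization, loess (span 0.3), centring on named probe sets, a floor at the 70th percentile or none, mean or median over probe sets, no _x_at or _s_at probe sets, and 50 added to each signal. Named genes are all members, and up to 4 genes of a list with the largest difference. Others were named for their role or after their values were seen, such as Irf1, Irf8, Ifngr2, Nlrc5, Atf4, Xbp1, Ddit3, Isg20, Zbp1, Bst2, Tap1, Tap2, Pomp, Sem1, Nfe2l1, Nfe2l2, Nfya and the class I chains. Members and lists were chosen with earlier results of these data known. RefSeq promoter windows were matched by symbol.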

Additional observations from a re-analysis of the deposited data

How the results depend on the processing

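No paired analysis was possible because neither genotype was replicated, and for that reason no replicate could be left out. Of the 47 measured genes, 42 kept their sign under all 10 alternatives. The others were Psmb8 (0.02 with probe sets averaged), Psme3ip1, Psmf1 (-0.25 with the median over probe sets), Psmg2 (-0.04 with probe sets averaged) and Psmc1 (-0.93 with probe sets averaged). Genes at least 2-fold higher numbered 4, against 2 without centring, 1 after quantile normalization, 1 after loess and 2 with the higher floor. Genes at least 1.5-fold higher numbered 21, against 11 after quantile normalization and 12 after loess. Genes at least 1.5-fold lower numbered 0, against 1 with no floor and 1 with probe sets averaged. The median of the members was 0.53 and lay between 0.40 and 0.51 under the alternatives, lowest after quantile normalization. The median of the standard subunits ran from 0.49 to 0.64 and that of Psmb8, Psmb9 and Psmb10 from -0.42 to -0.22. The cause of these changes was not tested. Signals near the floor and probe sets shared with related transcripts limit single genes.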
